A study of Mus musculus with 6 samples.

Results

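Accessible chromatin was described at 8 mouse genes that write, erase or keep DNA methylation and the repressive histone mark H3K27me3: Tet2, Tet3, Dnmt1, Dnmt3a, Ezh1, Ezh2, Eed and Suz12. DNMT1 copies methyl groups onto newly made DNA strands at replication, and DNMT3A places them at unmethylated CpG dinucleotides. TET2 and TET3 oxidise methylcytosine, the first step of its removal. EZH1 and EZH2 are the alternative catalytic subunits of Polycomb repressive complex 2 (PRC2), in which EED and SUZ12 are core partners. In regulatory T cells (Tregs), TET enzymes are known to keep the conserved enhancers of Foxp3 demethylated, and EZH2 is known to maintain repression after activation. Peaks in the gene or within 10 kb on either side were taken, on mm10 coordinates with RefSeq gene spans of GRCm38.p6. Merging those that overlapped gave 60 regions at the 8 genes, of 64817 in all.

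The peaks came from ATAC-seq, in which the transposase Tn5 cuts open DNA, of Tregs sorted as CD4+CD25+GITR+ cells from lymph nodes draining a B16.F10 melanoma. The mice had received 300000 tumour cells under the skin 14 days before. The 3 KO libraries (replicates 1, 2 and 4) came from il33-/- mice on the C57BL6 background, and the 3 WT libraries (replicates 2, 4 and 6) from C57BL6 mice. The labels give neither the deleted part of Il33 nor the age of the mice, nor whether replicates were separate mice, so a p-value speaks of the spread among these 6 libraries and no further. Tags kept per library numbered 4724339 to 10313493 in KO and 12927881 to 15229290 in WT, and depth and genotype cannot be told apart. The lists held 37266 to 42738 peaks in KO and 52836 to 55939 in WT. All 7 Treg marker genes had a peak in each library, 46 to 49 in sum in KO and 59 to 65 in WT. Sums over all protein-coding genes with a peak were also lower in KO, at 41074 to 46468 against 55031 to 57511 in WT. Of other cell types, peaks in sum numbered 6 to 9 in KO and 11 to 14 in WT at 4 B cell markers (none at Ms4a1), and 2 to 3 and 5 to 6 at 4 CD8 T and NK markers (none at Ncr1). They numbered 5 to 6 in KO and 6 in WT at 4 myeloid markers (none at Lyz2 and Csf1r), and 7 to 10 and 8 to 11 at 5 melanoma markers (none at Tyr and Dct). Every library had a peak at the B cell markers Cd79a and Pax5 and at the CD8 T markers Cd8a and Cd8b1. The same held for the myeloid markers Itgam and Cd14 and the melanoma markers Mitf, Pmel and Mlana. The part of other cells in the results below was not tested. A bulk library also cannot tell a site open in more cells from one cut more often in each cell.

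Most of the 8 genes start in CpG-rich DNA. CpGs are the substrate of the enzymes that 4 of them encode, and methylation was not measured here. The RefSeq promoter table for GRCm38.p6 gave 12 windows for the 8 genes, each from 250 bases before to 50 after a start, and 11 of them overlapped a region called in all 6 libraries. They are shown because the windows differed in CpG content as well as in openness. The only window without a peak in any library had 2 CpGs, and the other 11 had 12 to 57. The sequences below run 5′ to 3′ on the strand of the gene, with each CpG in capitals. They are the Tet2 start (chr3:133544341-133544640, minus strand), the outermost and the innermost of 3 Dnmt1 starts (chr9:20959839-20960138 and chr9:20952574-20952873, minus strand), the intronic Dnmt3a start (chr12:3891494-3891793, plus strand), and the Ezh2 (chr6:47594981-47595280) and Eed (chr7:89980927-89981226) starts, both on the minus strand.
Tet2: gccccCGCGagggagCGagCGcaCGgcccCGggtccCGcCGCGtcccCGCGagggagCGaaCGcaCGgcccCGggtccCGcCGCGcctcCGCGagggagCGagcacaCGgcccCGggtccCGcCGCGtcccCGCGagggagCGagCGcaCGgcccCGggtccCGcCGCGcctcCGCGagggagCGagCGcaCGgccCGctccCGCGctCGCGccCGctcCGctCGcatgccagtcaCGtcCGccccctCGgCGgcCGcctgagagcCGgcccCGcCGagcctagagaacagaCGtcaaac
Dnmt1 outermost: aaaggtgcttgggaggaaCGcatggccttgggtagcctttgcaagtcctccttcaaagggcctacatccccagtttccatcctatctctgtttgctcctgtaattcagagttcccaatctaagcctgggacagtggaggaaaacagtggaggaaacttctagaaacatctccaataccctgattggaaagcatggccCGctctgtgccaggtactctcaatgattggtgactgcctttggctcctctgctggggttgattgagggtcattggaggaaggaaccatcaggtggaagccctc
Dnmt1 innermost: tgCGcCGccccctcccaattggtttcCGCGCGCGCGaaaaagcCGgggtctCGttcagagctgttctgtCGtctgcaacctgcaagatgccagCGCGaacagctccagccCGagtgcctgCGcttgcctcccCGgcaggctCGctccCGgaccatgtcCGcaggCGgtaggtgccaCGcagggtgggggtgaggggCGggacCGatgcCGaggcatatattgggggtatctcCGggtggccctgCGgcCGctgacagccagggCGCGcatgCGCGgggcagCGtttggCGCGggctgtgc
Dnmt3a intronic: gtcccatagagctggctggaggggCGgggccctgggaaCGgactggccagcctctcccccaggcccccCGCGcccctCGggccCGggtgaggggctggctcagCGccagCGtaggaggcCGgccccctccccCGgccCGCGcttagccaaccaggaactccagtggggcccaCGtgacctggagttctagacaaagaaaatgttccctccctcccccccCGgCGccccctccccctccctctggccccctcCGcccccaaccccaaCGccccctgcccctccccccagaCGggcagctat
Ezh2: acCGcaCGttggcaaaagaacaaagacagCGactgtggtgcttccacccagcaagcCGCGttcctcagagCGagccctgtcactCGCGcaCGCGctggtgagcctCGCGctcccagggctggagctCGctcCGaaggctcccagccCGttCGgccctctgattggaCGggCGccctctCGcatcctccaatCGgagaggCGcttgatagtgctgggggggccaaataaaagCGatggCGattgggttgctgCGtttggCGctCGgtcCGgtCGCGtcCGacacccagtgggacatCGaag
Eed: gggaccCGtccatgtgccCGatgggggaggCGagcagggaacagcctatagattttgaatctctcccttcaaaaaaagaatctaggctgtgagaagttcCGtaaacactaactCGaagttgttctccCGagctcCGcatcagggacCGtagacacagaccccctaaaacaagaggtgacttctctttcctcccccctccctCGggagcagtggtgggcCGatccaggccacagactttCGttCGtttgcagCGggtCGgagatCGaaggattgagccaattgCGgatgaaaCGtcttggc

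The Tet2 window held 57 CpGs, more than 99.8% of the 21263 windows of protein-coding genes. The innermost Dnmt1 window held 33, the Ezh2 window 31, the intronic Dnmt3a window 18 and the Eed window 17, while the outermost Dnmt1 window held 2. Among windows not printed, Suz12 had 41 CpGs, the pair of overlapping outer Dnmt3a windows 46 and 47, Ezh1 23, Tet3 22 and the middle Dnmt1 window 12. Over all protein-coding genes, 6.15% of windows with 0 to 5 CpGs and 80.9% of those with 24 to 67 overlapped a region called in all 6 libraries. The median was 13 CpGs over all windows and 22 over those that overlapped such a region. Dnmt1 is known to use different first exons in oocytes and somatic cells, and Dnmt3a an intronic promoter for a shorter isoform. The table does not name the transcript of each start.

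**Figure D1:**
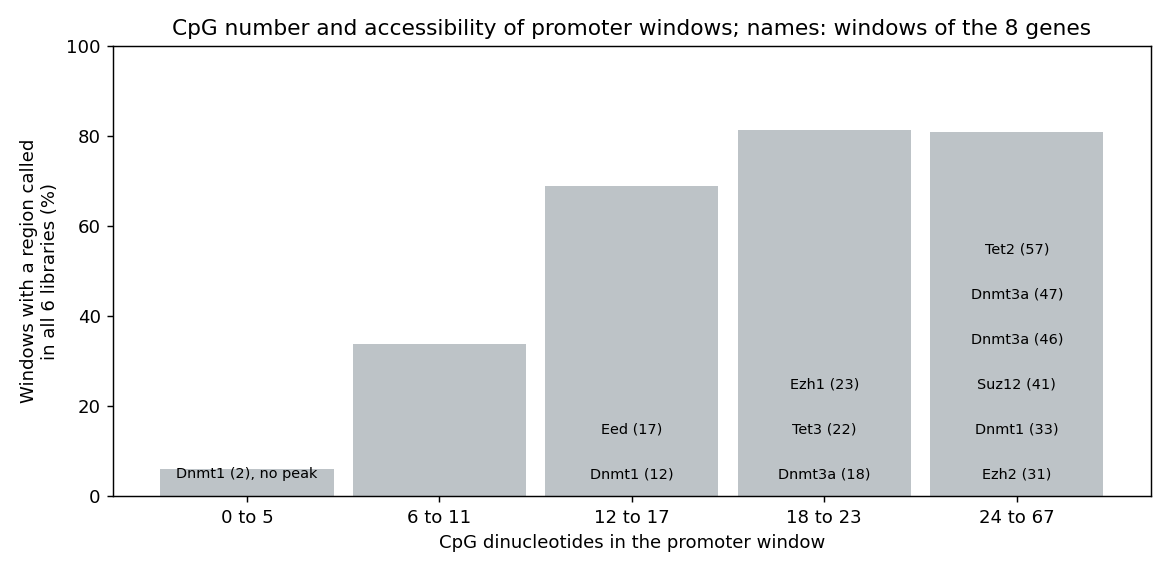
Grey bars give the percentage of promoter windows of protein-coding genes that overlapped a region called in all 6 libraries (y axis), by the number of CpG dinucleotides in the window (x axis), and names mark the 12 windows of the 8 genes with their CpG number in brackets. The outermost Dnmt1 window, with 2 CpGs, stands alone in the lowest class and had no peak, while 6 windows lie in the highest class.

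Some short motifs were counted on both strands in the 12 windows, as letters only, with no overlap between different motifs in these windows. Since 11 of the 12 windows were open, shares are given for all promoter windows and for the 10272 that overlapped a region called in all 6 libraries. The palindrome bound by NRF1 occurred in the middle and in the innermost Dnmt1 window, where 1.33% of all and 2.48% of open windows held it. TTTGGCGC, an E2F-type sequence, occurred in the innermost Dnmt1 window and in the Ezh2 window (0.635% of all, 1.07% of open), and TTTCCCGC, another, in the Suz12 window (1.41% and 2.39%). GGGCGG, bound by SP and KLF factors, was found in 7 of 12 windows, where 46.2% of all and 69.1% of open windows held it. CCAAT was found in 6 (38.2% and 39.1%), among them the outermost Dnmt1 window, which was not open. Both outer Dnmt3a windows held GGGCGG several times, 6 in the first and 7 in the second, and these windows share part of their bases. Some copies in the second window also overlap each other. TGTGGT, a RUNX-type sequence, occurred in the Ezh2 window alone of the 12 (15.0% of all, 11.8% of open). CCGGAA, an ETS-type sequence, occurred in none of the 12 (18.7% of all, 32.0% of open), nor did TGACGTCA, bound by CREB and ATF factors (2.23% and 3.65%). TGANTCA, an AP-1-type sequence (6.99% and 4.04%), and the NF-kB motif searched (0.423% and 0.438%) were in none either.

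All 8 genes had a start region called in every library and differed in how many further regions surrounded it. Of the 60 regions, 28 were called in all 6 libraries, against 45.4% of all regions of the series. Regions over a start numbered 9, all of them called in all 6 libraries, with 2 at Dnmt3a. Pileup, the coverage by extended tags at a peak's summit, was divided by the median pileup of the library's own list, so that 1 is the middle peak of that list. On this scale, averaged over the 6 libraries, the 9 start regions had a median of 3.17 (range 1.69 to 3.80), and the 14 shared regions elsewhere inside the genes 1.31 (0.579 to 2.56). Eed had no other region than its start, Suz12 had 3 regions, Dnmt1 5, Ezh1 and Ezh2 6 each, Tet2 8, Dnmt3a 15 and Tet3 16. Genes of similar length differed in this number: Tet2 spans 81.5 kb with 8 regions, and Tet3 94.8 kb with 16. They did not differ in regions called in all 6 libraries, of which each had 4. Of the Tet2 regions 1, and of the Tet3 regions 6, were called in 1 library only.

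**Figure D2:**
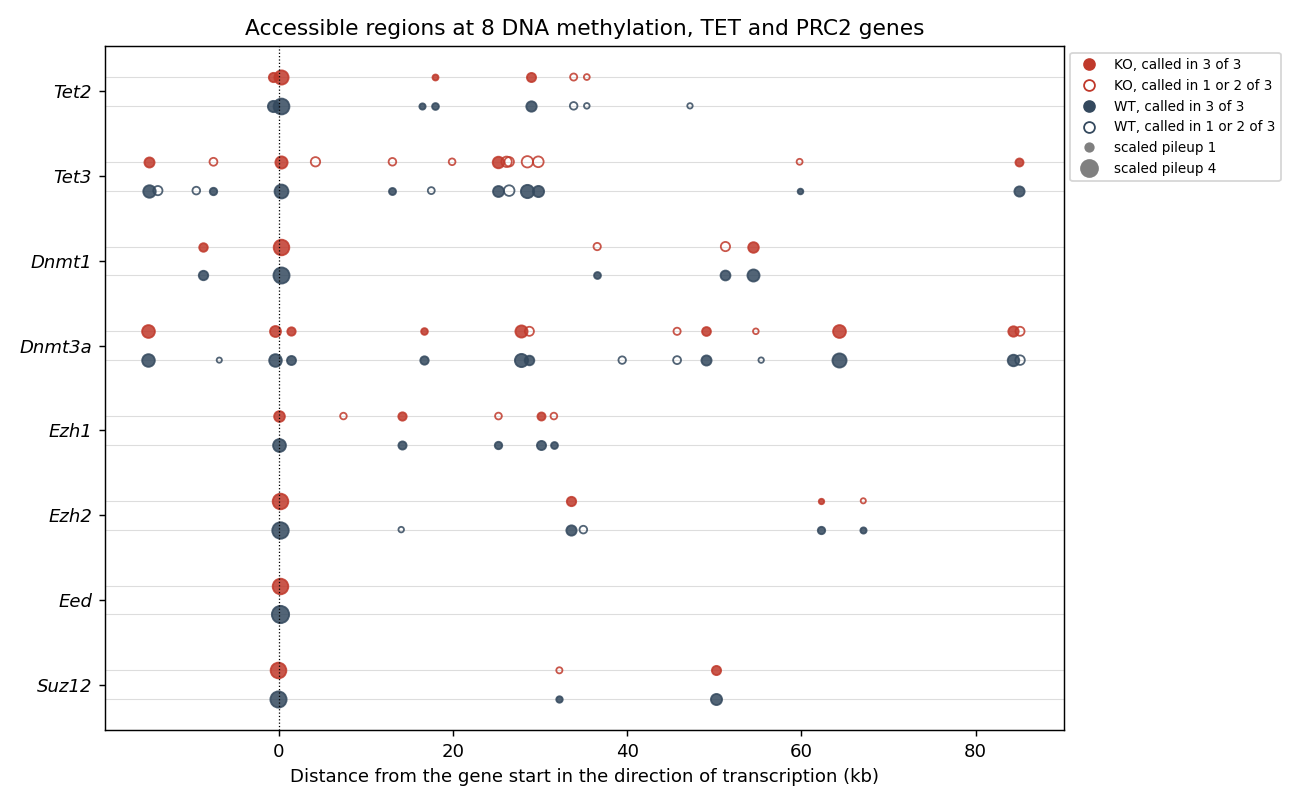
Each circle is an accessible region at its distance from the gene start in the direction of transcription (x axis, kb), with KO above WT for each gene. The area is proportional to the mean scaled pileup, and filled circles were called in all 3 libraries of the genotype. All 8 genes carry a filled circle at or near 0 in both genotypes, and Tet3 and Dnmt3a have the most further regions.

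At Tet2 (chr3:133463677-133545136) the start region, chr3:133543614-133544502, had scaled pileups of 2.70, 3.06 and 2.70 in KO and 3.36, 3.78 and 3.41 in WT libraries. The KO values all lay below the WT values on this scale, as at 48.2% of the 29419 regions called in all 6 libraries. That share applies to each region below where KO lay under WT throughout. A second region beside it, chr3:133544671-133545404, covers the outer end of the gene span and had scaled pileups of 1.40, 0.938 and 1.30 in KO against 1.86, 1.74 and 1.72 in WT. Inside the gene, 28.95 kb from the start, chr3:133515074-133515801 had 1.40, 1 and 1.13 in KO and 1.5, 1.74 and 1.31 in WT, values that overlapped between the genotypes. Another region 16.4 kb from the start, chr3:133527721-133528171, was the only one of the 60 called in all 3 WT and in no KO library, where 4.66% of all regions showed that pattern. It was a weak one in WT, with pileups of 15, 16 and 15 tags or scaled pileups of 0.536, 0.593 and 0.517. With equal-length lists, the 37266 most significant peaks of each library, it was no longer called in all 3 WT libraries and none of KO.

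At Tet3 (chr6:83362373-83457208) the start region, chr6:83440596-83442107, reached 2.20, 2.25 and 1.83 in KO and 2.36, 3.19 and 2.55 in WT on the same scale, with no overlap. It also covers the start of the transcript B230319C09Rik. The outer end of the gene span, at -14.84 kb relative to that start, held a region of 1756 bp (chr6:83455641-83457396) with 1.55, 1.44 and 1.30 in KO and 2.36, 2.11 and 2.1 in WT. Again every KO value was below every WT value. Between 25.2 and 29.8 kb from the start lay 5 regions within 5.17 kb, of which only chr6:83416174-83416771 was called in all 6 libraries. That region had scaled pileups of 1.60, 1.9 and 2.17 in KO and 1.71, 1.96 and 1.41 in WT, so the genotypes overlapped. The neighbouring chr6:83412808-83413432 was tall in the libraries that called it, with 1.95 in KO replicate 1, 1.65 in KO replicate 4 and 2.54, 2.63 and 2.24 in WT, and KO replicate 2 did not call it.

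Calls in this stretch of Tet3 were set against a high local background. The background implied by the authors' fold enrichment was 5.58 to 11.4 tags at its peaks in KO libraries and 13.6 to 15.4 in WT, above that of at least 95.2% of the peaks of each list. The list medians were 1.52 to 2.88 tags in KO and 3.20 to 3.56 in WT. Fold enrichment at these peaks was 2.44 to 4.75, against a median of 6.26 over all peaks of the 6 lists. Some libraries called no peak at regions of the stretch where others had scaled pileups above 1. The shallowest library, KO replicate 2, called 1 of the 5, and the part of background or depth in this was not tested.

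At Dnmt1 (chr9:20907206-20959888) a single tall region, chr9:20952135-20953291, covered the middle and the innermost start. Its scaled pileups were 3.35, 3.88 and 3 in KO and 3.93, 3.33 and 3.62 in WT, overlapping between genotypes. No library had a peak over the CpG-poor outermost start printed above, while chr9:20961280-20961909, at -8.62 kb relative to the middle start and so beyond the outermost, was called in all 6 at 1.05, 0.875 and 1.17 in KO and 1.04, 1.37 and 1.34 in WT. The shared region at the far end of the window, chr9:20898146-20898995, lies over the start of the neighbour Eif3g, a translation factor gene.

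At Dnmt3a (chr12:3801559-3914443) both the outer and the intronic starts were open. The outer start region, chr12:3806029-3807033, had scaled pileups of 2.00, 1.56 and 1.52 in KO and 1.89, 2.41 and 2.45 in WT. The intronic one, chr12:3890780-3891763, had 1.90, 1.38 and 1.26 in KO and 1.82, 1.93 and 1.86 in WT. Each pair of groups overlapped. The tallest region of the gene was neither start but chr12:3870805-3871897, 64.4 kb inside, with 2.3, 2.44 and 2.22 in KO against 2.61, 3.04 and 2.76 in WT. Upstream of the gene span, chr12:3791710-3792378 had 2.55, 1.94 and 2.43 in KO and 2.14, 2.59 and 2.03 in WT, which overlapped. Dnmt3a was the only one of the 8 whose tallest region was not at a start.

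Of the 2 catalytic PRC2 genes, Ezh2 (chr6:47530274-47595270) had the taller start. Its region, chr6:47594098-47595728, which it shares with the start of the transcript F830010H11Rik, had 3.80, 3.31 and 3.17 in KO and 3.43, 4.00 and 4.00 in WT, values that overlapped. The start of Ezh1 (chr11:101191115-101226463), at chr11:101225950-101226811, had 1.80, 1.31 and 1.78 in KO and 2.29, 2.37 and 2.34 in WT, with KO below WT throughout. Every library had a taller peak at the start of Ezh2 than at that of Ezh1. Inside Ezh2, 33.6 kb from the start, chr6:47560875-47561938 had 1.2, 1.19 and 1.30 in KO and 1.36, 1.48 and 1.62 in WT. A weak region near its 3′ end, chr6:47532444-47532990, had 0.5, 0.312 and 0.435 in KO and 0.679, 1.04 and 0.586 in WT, with no overlap. Inside Ezh1, chr11:101211912-101212620, 14.2 kb from the start, had 0.800, 1.06 and 1.09 in KO and 1.07, 0.926 and 0.828 in WT, which overlapped.

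The core partners had few regions and tall starts. Eed (chr7:89954654-89980976) had 1 peak in each library, in chr7:89979981-89981697, with scaled pileups of 3.75, 3.38 and 3.13 in KO and 4.18, 4.30 and 4.07 in WT, again with KO below WT throughout. These peaks were 1351, 1277 and 1515 bp long in KO and 1464, 1510 and 1442 bp in WT. The start of Suz12 (chr11:79993106-80034123), chr11:79992417-79993623, had 3.55, 3.12 and 3.70 in KO and 3.46, 4.07 and 3.52 in WT, which overlapped. A region beyond its 3′ end, chr11:80042760-80043863, was called in all 6 libraries at 1.35, 1.06 and 1.17 in KO and 1.89, 1.78 and 1.55 in WT, without overlap.

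Among the starts of 8798 protein-coding genes with a region called in all 6 libraries, ranked by mean scaled pileup, Eed stood at percentile 78.8, Ezh2 at 73.0, Suz12 at 71.4 and Dnmt1 at 69.9. Tet2 stood at 58.9, Tet3 at 33.4, Ezh1 at 22.9 and Dnmt3a at 22.6. The median scaled pileup of such starts was 2.91. In mean scaled pileup the 8 starts ran from Eed, with means of 3.42 ± 0.312 in the KO and 4.18 ± 0.114 in the WT libraries (SD over 3), to Ezh1 with 1.63 ± 0.277 and 2.33 ± 0.0434 and Dnmt3a with 1.69 ± 0.265 and 2.25 ± 0.310. Eed, Ezh2, Suz12 and Dnmt1 lay within 1 SD of each other in KO, at 3.42, 3.43, 3.46 and 3.41. In WT Eed, at 4.18, lay above Ezh2 (3.81 ± 0.330), Suz12 (3.69 ± 0.338) and Dnmt1 (3.63 ± 0.298). Tet2 averaged 2.82 ± 0.211 in KO and 3.52 ± 0.228 in WT, and Tet3 2.09 ± 0.232 and 2.70 ± 0.433, so the order of the lower 4 was the same in both genotypes except for Ezh1 and Dnmt3a, which did not differ beyond their spread.

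**Figure D3:**
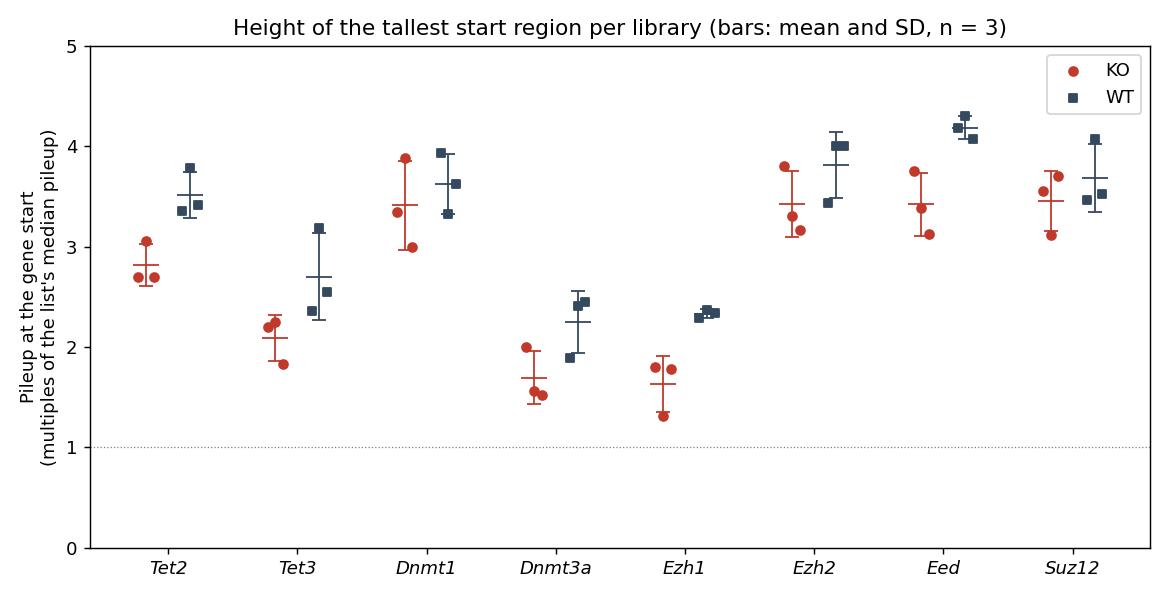
Scaled pileup at the tallest start region of each gene (y axis, multiples of the median pileup of the library's list) for the KO (circles) and WT (squares) libraries, with mean and SD (n = 3 each). Eed, Ezh2, Suz12 and Dnmt1 lie at or above 3 in all libraries, Ezh1 and Dnmt3a lie below 3 in all, and the dotted line marks the list median of 1.

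Dividing by the list's own median placed nearly everything lower in KO. At 17 of the 28 shared regions every KO value lay below every WT value, against 48.2% of the 29419 regions called in all 6 libraries. No member region had all KO values above all WT values (0.197% of all). The shift ran through the whole table and was not particular to these genes. In log2, KO minus WT, the median of all shared regions was -0.32 on this scale and that of the 28 was -0.35. Heights were therefore compared after centring each library on its median over the shared regions, where the median difference was 0.03 for all and 0.00 for the 28 (14 above 0, against 55.4% of all).

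None of the 28 regions passed an adjusted p of 0.05 by limma with Benjamini-Hochberg adjustment over 29419 regions, where 2.42% of all did. At an unadjusted p under 0.05 there were 6 of 28, 5 higher and 1 lower in KO, against 16.5% of all. Without the mean-variance trend limma called 0 of the 28 and 0 of the whole table. The groups did not overlap on the centred scale at 3 regions with higher values in KO (13.7% of all) and at 2 with lower ones (6.94%). The 3 were the shared region of the Tet3 stretch, the region upstream of Dnmt3a and the start of Suz12. Their groups overlapped when divided by the list's own median. The 2 were chr6:83455641-83457396 at Tet3 and chr12:3823440-3823976 at Dnmt3a.

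The lowest adjusted p belonged to the shared region of the Tet3 stretch described above, with a log2 difference of 0.50 ± 0.15 (SE, limma adjusted p = 0.0576). It passed in 1 alternative, limited to regions with 1 peak per library, at an adjusted p of 0.0461 (range 0.0461 to 0.999 over 12 alternatives other than file-median scaling). Next came the region upstream of Dnmt3a, at 0.38 ± 0.12 (limma adjusted p = 0.0862, range over 13 alternatives 0.0282 to 0.999), which passed only without KO replicate 2. The start of Suz12 stood at 0.26 ± 0.09 (limma adjusted p = 0.133, range 0.078 to 0.999) and that of Dnmt1 at 0.25 ± 0.10 (limma adjusted p = 0.191, range 0.0624 to 0.999). The start of Ezh2 stood at 0.20 ± 0.10 (limma adjusted p = 0.292). With quantile normalization the differences at these 3 starts shrank to 0.11, 0.10 and 0.04. The weak region near the 3′ end of Ezh2 stood at -0.52 ± 0.25 (limma adjusted p = 0.283).

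Differences at the remaining starts were smaller than or close to their standard errors. Ezh1 had -0.18 ± 0.14, Dnmt3a -0.06 ± 0.14 at the outer start and 0.02 ± 0.15 at the intronic one, Tet3 -0.01 ± 0.12, Tet2 0.03 ± 0.10 and Eed 0.05 ± 0.09 (log2, SE). Start regions in general lay slightly above 0, with a median of 0.07 over 8022 of them and 63.7% above 0, so 5 of 8 above 0 and a median of 0.04 for these genes do not stand apart. Peaks were shorter in KO at the 28 regions, with a median KO to WT length ratio of 0.832, against 0.821 over all shared regions.

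**Figure D4:**
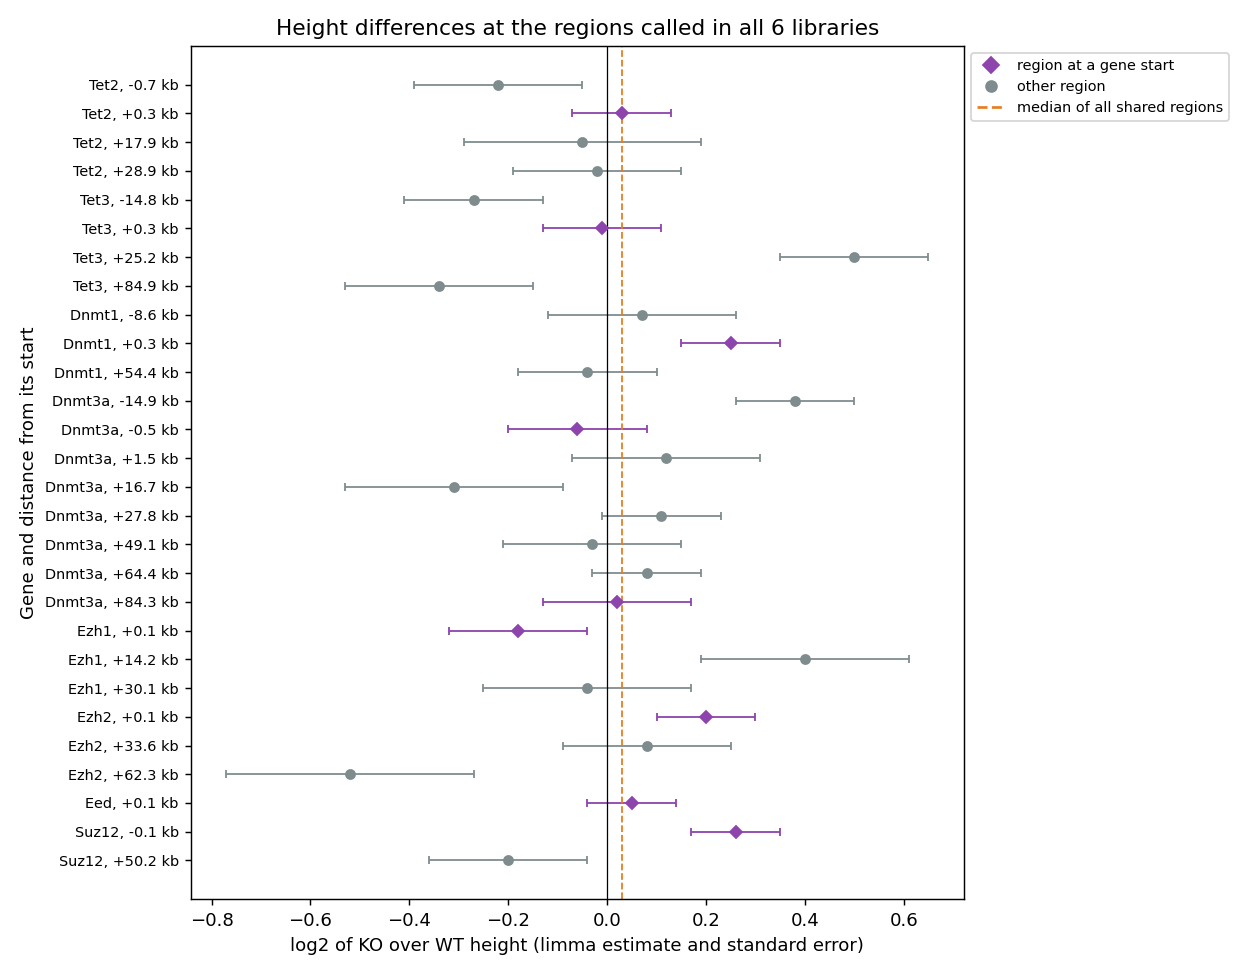
Difference in log2 height between KO and WT (x axis, limma estimate with standard error as bars, centred on the shared regions) for the 28 member regions called in all 6 libraries, listed by gene and distance from the start (y axis). Diamonds are start regions, circles other regions, and the dashed line is the median of all 29419 shared regions, 0.03. The estimates scatter on both sides of 0, and the highest, 0.50 at Tet3, has an adjusted p of 0.0576.

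The 8 genes had fewer peaks in KO libraries on average, as the lists themselves did, and the sums overlapped. In sum they were 41, 35 and 45 in KO and 48, 52 and 44 in WT libraries, or 40.3 ± 5.03 against 48.0 ± 4.00 (SD over 3 libraries, two-sided exact permutation p = 0.2). The KO to WT ratio was 0.840, and 0.793 for the sum over all 16246 protein-coding genes with a peak. Per 10000 peaks of the list the 8 genes took 9.67, 9.39 and 10.5 in KO and 9.01, 9.30 and 8.33 in WT. These groups did not overlap (two-sided exact permutation p = 0.1, n = 3 each, the smallest p this design allows). The direction was not particular to the 8 genes. Set against list length, sums over all protein-coding genes with a peak also separated the genotypes, with KO on the upper side. Those sums were 45761, 41074 and 46468 in KO, from lists of 42408, 37266 and 42738 peaks. In WT they were 55471, 57511 and 55031, from lists of 53251, 55939 and 52836 peaks. For the 8 genes, the difference of 0.984 per 10000 peaks was 0.479 with a stricter peak threshold, a −log10 q of at least 5 (exact permutation p = 0.6) and 0.358 in equal-length lists (exact permutation p = 0.7). In equal-length lists the sums of the 8 genes differed by 1.33, higher in KO (exact permutation p = 0.7).

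Of the 8 genes only Dnmt1 had numbers that did not overlap, with 4 peaks in each KO and 5 in each WT library; 15.5% of all genes with a peak were lower in this way. None was higher in KO (0.388% of all). The KO libraries lacked different Dnmt1 regions: KO replicates 1 and 4 lacked chr9:20916112-20916707 and KO replicate 2 lacked chr9:20901500-20901877. Tet2 had 6, 4 and 5 peaks in KO and 6, 8 and 5 in WT, and Tet3 9, 5 and 11 against 11, 12 and 9. Dnmt3a had 11, 8 and 12 in KO and 11, 12 and 11 in WT, Ezh1 4, 5 and 4 against 5 in each, and Ezh2 3, 5 and 4 against 5, 5 and 4. Suz12 had 3, 3 and 4 in KO and 4 in each WT library. All of these overlapped between genotypes.

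**Figure D5:**
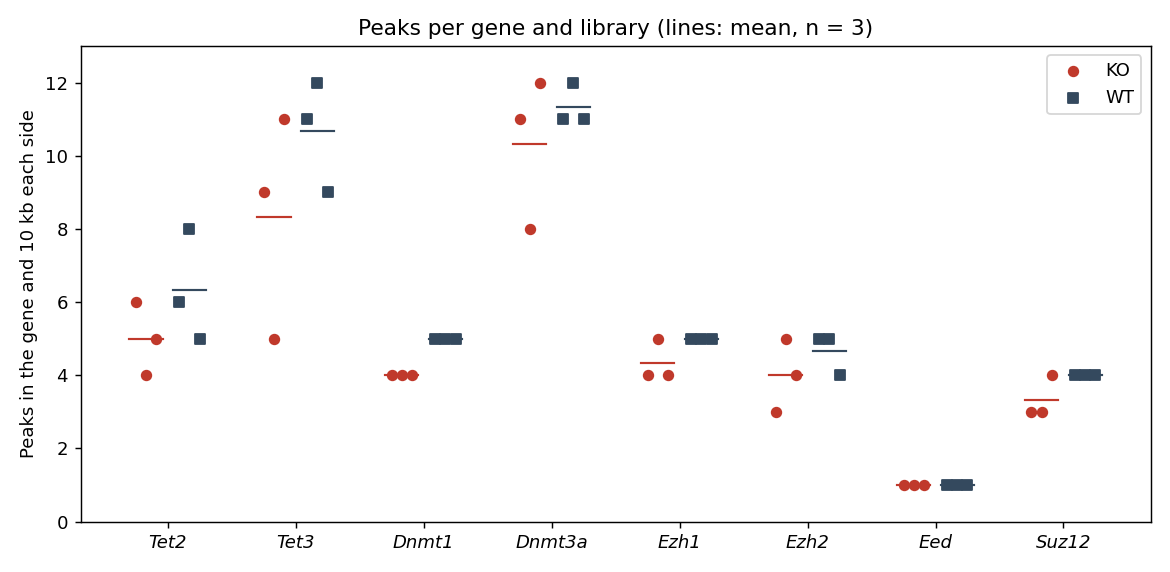
Number of peaks in the gene or within 10 kb (y axis) in each KO (circles) and WT (squares) library, with lines at the means (n = 3 each). Dnmt1 is the only gene whose groups do not overlap, at 4 against 5 peaks, and Eed has 1 peak in each library.

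Regions called in all WT but not all KO libraries numbered 13 of 60, the same share as the 21.7% of all regions. The reverse, called in all KO but not all WT, numbered 0 (0.481% of all), and 0 were called in KO alone in all 3 (0.0185%). These 13 were mostly weak: 9 had a mean scaled pileup under 1 in WT, and their median was 0.701, against 1.82 for the 28 shared regions. KO replicate 2, the shallowest library, missed 9 of the 13, KO replicate 4 missed 6 and KO replicate 1 missed 4. In 7 of them KO replicate 2 alone was missing, 4 at Tet3 and 1 each at Dnmt1, Dnmt3a and Suz12. These 7 were 11.7% of the 60 regions, against 5.96% of all regions with that pattern. Without that library the 13 became 6, and in equal-length lists 4. A further 14 regions were called in 1 library only (17.5% of all), 5 of them in WT replicate 4 and 6 of them at Tet3.

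Other genes of the same machinery all had a peak in every library, and 8 of 10 DNA methylation genes and 8 of 9 PRC2 partners and H3K27 demethylases had a start region called in all 6. Among the 10 other DNA methylation genes, 24 of 38 regions were shared and had a median log2 difference of 0.03, 2 of them past the limma threshold and both higher in KO on the centred scale. Of all shared regions in the table, 2.1% were called higher in KO, and 5.44% of start regions were called, 407 of 436 of them higher. A call at Mbd4, a glycosylase that acts at mismatched CpGs, lay over its start (0.31 ± 0.08, SE, limma adjusted p = 0.0264). The other, listed under Uhrf1 by the 10 kb rule (0.32 ± 0.09, limma adjusted p = 0.032), lay outside that gene, 1.95 kb from it. The 9 PRC2 partners and H3K27 demethylases had 26 of 56 regions shared with a median of 0.07, 2 of them past the threshold and higher in KO. One lay over the start of Kdm6a, which removes H3K27 methylation (0.33 ± 0.09, limma adjusted p = 0.0372). The other, listed under Phf1 (0.34 ± 0.09, limma adjusted p = 0.0307), lay 1.02 kb outside it, over the start of its neighbour Cuta. Quantile normalization ended all 4 calls, with limma adjusted p of 0.948 at Mbd4, 0.759 near Uhrf1, 0.588 at Kdm6a and 0.611 near Phf1. Tet1, the third TET gene, and Dnmt3b, the other de novo methyltransferase, had low starts, with mean scaled pileups of 0.878 and 1.26, at percentiles 3.93 and 9.77. Rbbp4, a histone-binding PRC2 subunit, had 1 region, at its start, with 4.00.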

How the data were processed

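ATAC-seq peak lists of 3 KO and 3 WT libraries were used, grouped and numbered by their titles. The submitters' processing notes name mm10, Bowtie2 2.3.1 and Picard 1.88. Per the file headers, the authors called peaks on each library alone, without a control, with MACS 2.1.1.20160309 at a q-value of 0.05, with tags shifted by -100 and extended to 200 bp, 1 tag per position and a 10000 bp background window. No label or header says whether reads were moved by the Tn5 offset. Pileup, as deposited, is a signal in tags that is not scaled to depth. The deposited −log10 p-values and q-values rank peaks within a library, and fold enrichment as deposited divides pileup by local background, each plus 1. Deeper libraries call weaker sites, so an uncalled region is not shown to be closed.

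Peaks overlapping by 1 bp were merged over lists. A region's height was the tallest peak of each library in it. Heights of regions called in all 6 libraries were fitted as log2 pileup with limma 3.58.1 (R 4.3.3), with a mean-variance trend, after centring on the shared regions. Peak numbers were compared by exact permutation over 20 assignments. Python 3.11.15, NumPy 2.4.6, pandas 2.3.3 and Matplotlib 3.10.9 were used. All 8 gene symbols matched the RefSeq tables. Named were the 8 genes, their start and tallest regions, regions of one genotype only, those nearest the limma threshold, and related genes of the same pathways. The genes, lists and tests were chosen with earlier results of these data known. The closing section gives the alternatives, which were thresholds, list lengths, flanks, scalings, left-out libraries and pairing by replicate number.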

Additional observations from a re-analysis of the deposited data

How the results depend on the processing

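Counts of regions past the limma threshold were 0 of 28 and stayed at 0 with the stricter threshold (−log10 q of at least 5), equal-length lists, narrower flanks, heights per tag total, quantile normalization, no trend and the replicate block. The count was 12, all lower in KO, with heights scaled to the file median, and 1 (Tet3) with 1 peak per library only. Leaving out each library gave 0 to 1. The median height difference, 0.00 in log2, was -0.35 with file-median scaling and 0.09 with the replicate block, and -0.01 to 0.09 without each library. The sum of member peaks, -7.67 for KO minus WT, was 1.33 in equal-length lists and -10 to -5 without each library. Per 10000 peaks the difference of 0.984 was 0.479 with the stricter threshold, 0.358 in equal-length lists and 0.651 to 1.22 without each library. Regions called in all WT and no KO libraries, 1 at first, were 0 in equal-length lists, 2 with the stricter threshold, 2 when 50% of the region had to be covered, 3 with the replicate block and 1 to 4 without each library. Those called in all WT but not all KO libraries, 13 at first, were 4 in equal-length lists, 22 with 50% coverage and 6 to 16 without each library. Those called in all KO but not all WT libraries, 0 at first, were 2 in equal-length lists and 0 to 1 without each library. The cause of these shifts was not tested.

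Start height differences under 0.1 in size changed sign most easily. Tet2 (0.03) was -0.05 without KO replicate 2, -0.08 with quantile normalization and -0.32 with file-median scaling. Tet3 (-0.01) was 0.09 without KO replicate 4, 0.08 without WT replicate 4 and 0.01 per tag total, with -0.10 to 0.09 over the left-out libraries. Dnmt3a (-0.06) was 0.02 without KO replicate 4 and 0.00 without WT replicate 6, with -0.18 to 0.02 over them. Eed (0.05) was -0.12 with quantile normalization and -0.29 with file-median scaling, which also gave Dnmt1 -0.09, Ezh2 -0.15 and Suz12 -0.09. With file-median scaling, which put the median of all regions at -0.32, the starts of Tet2, Tet3, Dnmt3a, Ezh1 and Eed passed (limma adjusted p = 0.0201, 0.0296, 0.0282, 0.00666 and 0.0191), all lower in KO.

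Replicates 2 and 4 exist in both genotypes, and the replicate block compared those 4 libraries by number. Deviations from the group means correlated by -0.02 for the pair numbered 2 and -0.05 for the pair numbered 4 over 29419 regions. Pairs of unlike number gave -0.03 to 0.05. Whether libraries with the same number share anything more than the number was not tested. The replicate block gave a peak difference of -10 and called 11 regions in the whole table, against 712. That count was 3 per tag total, 45 with quantile normalization, 0 without trend, 10197 with file-median scaling and 11 to 1166 without each library.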

Other observations

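For each of the 8 genes, the protein-coding gene with the most similar start was sought among 8786 others, by Euclidean distance of log2 scaled pileup over the 6 libraries at start regions called in all of them. Eed was closest to Sec62, a subunit of the protein translocation machinery of the endoplasmic reticulum (distance 0.0529, against a median distance of 1.04 to all compared starts). Tet2 was closest to Tmem245 (0.0909), Ezh2 to the ribosomal protein gene Rps2 (0.103) and Suz12 to Id3, which encodes an inhibitor of E proteins (0.105). Tet3 was closest to Chtf8 (0.139), Ezh1 to Fkbp7 (0.150), Dnmt1 to 2310022A10Rik (0.173) and Dnmt3a to Specc1 (0.193). The distance rests on level and on the pattern over 6 libraries together, and with so many starts compared small distances are found for any gene.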
